A study of Mus musculus with 18 samples.

Results

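The 8 genes described here are products used to mark Paneth cells: Lyz1, Ang4, Itln1, Mptx1, Pla2g2a, Clps, Habp2 and Nupr1. They were chosen by name, and each was read from the probe set annotated to that gene alone. All 8 had such a probe set, out of 19938 genes measured in this way, and each had 1, so no choice between probe sets was needed. RNA from mouse intestine was measured on 18 Affymetrix arrays in 6 groups of 3. A pair of groups held intestinal epithelial cells with floxed Stat3 alleles (Stat3fl/fl, the control) or with Stat3 deleted (Stat3-/-), and the other 4 held intestinal tumours of male or female mice with the same pair of genotypes. Per the series text, the deletion came from a Cre recombinase driven by the Villin promoter, which is active in intestinal epithelium and not in stroma or blood cells. The same text places the mice on the APCmin background, in which a mutant Apc allele activates WNT signalling and tumours form mainly in the small intestine. The sample descriptions instead name chemically induced colorectal tumours, so the gut segment of each tumour is not settled by the labels. For the epithelial cells the labels give no sex and no Apc genotype, and they give no age or strain for any sample. Nothing in them states that each sample is a different animal. The p-values therefore measure only how far these samples spread, which may in part be technical.

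Paneth cells sit at the base of the crypts of the small intestine, between the Lgr5-positive stem cells, and are absent or rare in the normal mouse colon. They release granules of antimicrobial proteins into the crypt, among them lysozyme and the alpha defensins, and supply the neighbouring stem cells with WNT and Notch ligands. Their maturation depends on WNT signalling, the pathway that a mutant Apc allele activates.

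The deleted gene was read first. Stat3 lay between 9.75 and 10.35 on the log2 scale in the 9 control arrays and between 7.73 and 8.46 in the 9 deleted arrays. Its log2 difference was -1.96 in epithelial cells, -2.09 in male tumours and -1.87 in female tumours, with limma adjusted p = 1.23e-05, 4.7e-06 and 1.24e-05. Whether the probe set lies in the deleted exons is not given. A pair of control tumours, replicate 9 (male) and replicate 15 (female), stood apart in genes of gut position. Hoxd13, a transcription factor of the hindgut, read 8.25 and 9.10 in them against a median of 5.05 over the 12 tumours, and Car1, a colonic carbonic anhydrase, read 10.90 and 10.24 against 4.83. Gata4, a transcription factor of the proximal small intestine, read 6.92 and 6.84 against a median of 9.36. Both arrays were left out of a further fit. For control tumours against control epithelial cells, values without them are given for the 8 genes, Lyz2, Mmp7, Defa24 and Defa39. Values of the marker lists and of probe sets that name several defensins include both arrays. In Stat3-deleted female replicate 16, Car1 read 8.40. Of 5 ileum markers, 1 was called lower for Stat3 deletion in tumours of both sexes, and their median difference was -0.19. Fabp6, the ileal bile acid binding protein, read 4.27 to 4.62 in the 6 deleted tumours and 4.78 to 11.10 in the 6 controls (limma adjusted p = 0.0946). Of all genes, 1.14% were likewise lower without overlap. Slc10a2, which takes up bile acids in the ileum, fell by 2.03 with deletion in tumours of both sexes (adjusted p = 0.000315). The mean of the 5 ileum markers overlapped between genotypes. It was 5.77 to 9.26 in male and 6.23 to 7.26 in female controls. With Stat3 deleted it was 5.83 to 6.48 in males and 5.60 to 6.43 in females. The highest value, 9.26, was control male replicate 8, against a median of 6.37 over the tumours.

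Lyz1 encodes the lysozyme of Paneth granules and Lyz2 the lysozyme of macrophages and other myeloid cells. They are close copies that neighbour each other on chromosome 10, so a probe for either may bind RNA of the other. Their promoters are also alike, as the 250 bases before each start site show, taken from the RefSeq promoter table for build GRCm38.p6. Both lie on the minus strand, Lyz1 at chr10:117292869-117293118 and Lyz2 at chr10:117282273-117282522. Capitals mark bases without an identical partner in the alignment of the pair.
Lyz1: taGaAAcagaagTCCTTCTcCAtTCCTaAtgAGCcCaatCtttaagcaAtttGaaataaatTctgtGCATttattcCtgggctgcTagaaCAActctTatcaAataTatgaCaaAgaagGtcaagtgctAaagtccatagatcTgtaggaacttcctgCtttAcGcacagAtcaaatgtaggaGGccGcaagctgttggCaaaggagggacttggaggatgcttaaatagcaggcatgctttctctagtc
Lyz2: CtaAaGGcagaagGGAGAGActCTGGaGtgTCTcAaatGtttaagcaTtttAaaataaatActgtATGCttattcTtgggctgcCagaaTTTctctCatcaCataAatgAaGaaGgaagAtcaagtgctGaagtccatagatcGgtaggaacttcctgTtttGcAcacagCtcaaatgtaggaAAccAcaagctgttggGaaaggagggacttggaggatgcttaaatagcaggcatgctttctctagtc
Of 252 aligned columns, 200 were identical (79.4%), and 92 of the last 100 before the start were identical. These bases lie before the start site, so they say nothing of how alike the RNAs or the probe targets are. Of the 8 Paneth cell genes, 6 had a promoter in this table.

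Lyz1 was near the top of every array, above 97.6% of probe sets or more, and was not called different between tumours and epithelial cells. It read 12.28, 12.39 and 11.19 in control and 12.10, 11.56 and 11.31 in deleted epithelial cells. In control tumours it read 12.77, 12.70 and 12.32 in males and 12.66, 12.94 and 12.27 in females. All 6 control tumours lay within 0.68 log2 units of each other, and they overlapped the epithelial cells. In Stat3-deleted tumours Lyz1 read 12.26, 11.09 and 11.82 in males and 11.55, 11.51 and 12.57 in females, which placed 5 of the 6 below every control tumour, the highest of them (12.263) just below the lowest control (12.268). Lyz2 differed from Lyz1 in this respect. It read 7.18 to 9.02 over the 6 epithelial arrays and 8.99 to 11.50 over the 12 tumours, and the 6 tumours of each genotype lay above the 3 epithelial arrays of that genotype.

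For tumours against epithelial cells within a genotype, the sexes were averaged, and limma called a gene at an adjusted p under 0.05 over 17316 tested genes. Lyz1 differed by 0.66 ± 0.32 (log2, SE; 6 tumours against 3 epithelial arrays) in controls with adjusted p = 0.079 (0.81 with adjusted p = 0.0508 without replicates 9 and 15), and by 0.14 ± 0.32 with Stat3 deleted, adjusted p = 0.701. Lyz2 was 1.73 ± 0.51 higher in control tumours (adjusted p = 0.00783) and 2.05 ± 0.51 higher in deleted tumours (adjusted p = 0.00247). Without replicates 9 and 15 the difference in controls was 1.18. Macrophage markers were higher in the same tumours. Of 12 macrophage markers, Lyz2 included, 11 rose in control and 9 in deleted tumours. Their mean level per array was 5.63 to 6.07 in epithelial cells and 6.79 to 8.37 in tumours, highest in the arrays with the highest Lyz2. The part of macrophage RNA in the Lyz1 signal was not tested.

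**Figure D1:**
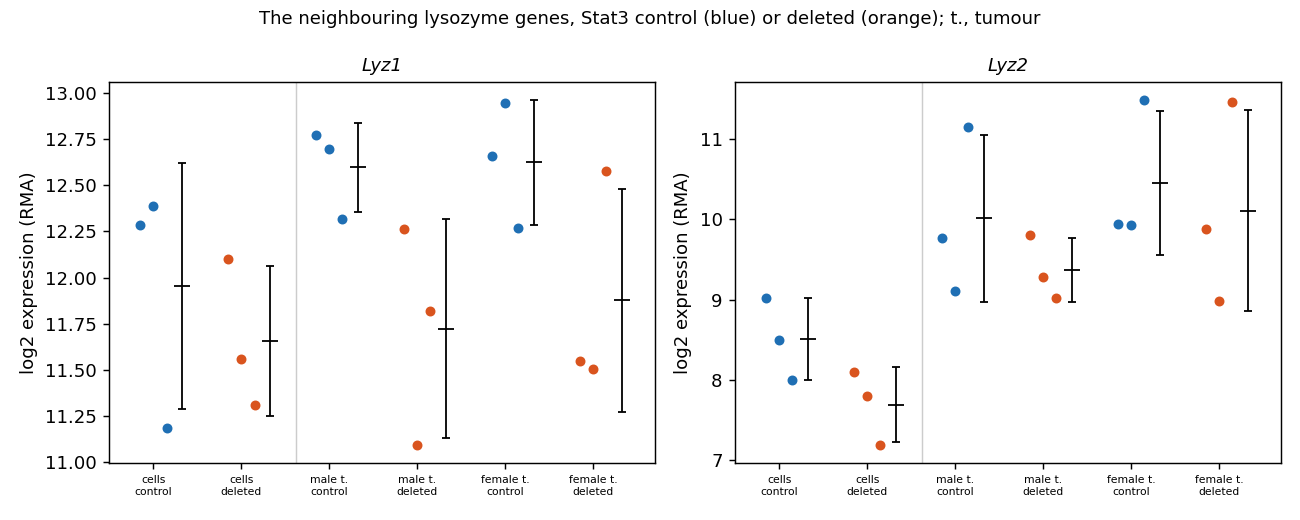
Log2 expression of Lyz1 and Lyz2 in each of the 18 arrays by group, with points for arrays and bars for the group mean and SD (n = 3). Lyz1 overlaps between epithelial cells and tumours, while Lyz2 reaches 11.50 in tumours and no more than 9.02 in epithelial cells.

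Tumours and epithelial cells also differ in cell composition, since the tumours hold stroma. Other epithelial types shifted in the same comparisons: of 12 enterocyte markers, 12 fell in control tumours (median -2.19) and 4 with Stat3 deleted (median -1.07), and of 11 enteroendocrine markers 10 fell in each. Markers of gut position shifted too: of 5 ileum markers, 5 fell in control tumours (median -2.73) and 5 with Stat3 deleted (median -2.24). Their mean level per array was 8.88 to 9.25 in epithelial cells and 5.60 to 9.26 in tumours. Among 5 markers of the proximal small intestine, 2 and 1 fell. The part of these cell types and of gut position in the differences of the Paneth cell genes was not tested. In bulk samples such as these, fewer Paneth cells and less RNA per cell cannot be told apart. Between control tumours and control epithelial cells, 3 of the 8 genes rose, 1 fell and 4 were not called. Of all tested genes 65.7% were called there, 30.4% as higher and 35.3% as lower. With Stat3 deleted, 3 rose and 0 fell, where 66.5% of all genes were called, 30.3% as higher and 36.2% as lower. The share of the 8 genes called was thus below that of all genes, and their median difference was 0.12 in controls and -0.17 with Stat3 deleted, beside -0.08 and -0.07 over all genes.

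Pla2g2a, a secreted phospholipase with antibacterial activity and the known Mom1 modifier of tumour number in APCmin mice, had the highest fold of the 8. Some mouse strains, C57BL/6 among them, carry a disrupted allele of it, and the labels give no strain. In control epithelial cells it read 6.15, 6.37 and 5.34, and with Stat3 deleted 6.09, 5.48 and 5.61. In control tumours it read 10.75, 10.90 and 10.07 in males and 10.66, 10.99 and 10.12 in females. Deleted tumours read 10.46, 10.46 and 9.87 in males and 9.85, 9.54 and 10.70 in females. Every tumour lay more than 3 log2 units above every epithelial array. Without overlap, 24.8% of all genes were higher and 26.3% lower in control tumours than in control epithelial cells, and 27.1% were higher and 28.8% lower with Stat3 deleted. The difference was 4.63 ± 0.29 in controls, 24.8-fold with adjusted p = 1.31e-08, and 4.42 ± 0.29 with Stat3 deleted, 21.4-fold with adjusted p = 2.83e-08. In epithelial cells Pla2g2a stood between the 37.4th and 57.7th percentile of the array, so part of its signal there may be background and the fold may be understated.

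Habp2, a secreted serine protease that binds hyaluronan, had the second highest fold. It read 6.78, 6.73 and 5.998 in control and 6.63, 6.39 and 6.54 in deleted epithelial cells. Control tumours read 10.84, 9.41 and 9.35 in males and 11.001, 10.68 and 9.36 in females, and deleted tumours 10.32, 10.33 and 9.43 in males and 8.98, 9.51 and 10.87 in females. The tumours spread over 2.02 log2 units and did not overlap the epithelial arrays. The difference was 3.60 ± 0.43 in controls (12.2-fold, adjusted p = 6.45e-06) and 3.39 ± 0.43 with Stat3 deleted (10.5-fold, adjusted p = 1.85e-05).

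Nupr1, a small chromatin protein induced by cell stress, rose less. It read 7.32, 7.57 and 7.65 in control and 7.15, 7.24 and 7.07 in deleted epithelial cells. Control tumours read 8.43, 8.47 and 8.91 in males and 8.28, 8.28 and 9.30 in females, and deleted tumours 8.96, 8.98 and 8.26 in males and 8.37, 8.53 and 9.34 in females. All 12 tumours lay above all 6 epithelial arrays. The difference was 1.10 ± 0.25 in controls (2.14-fold, adjusted p = 0.00148) and 1.58 ± 0.25 with Stat3 deleted (3-fold, adjusted p = 0.000101). Of 9 other genes of the stress response, 1 rose, 3 fell and the other 5 were not called in control tumours, and 2 rose and 4 fell with Stat3 deleted. Asns, asparagine synthetase, rose by 1.33 and 1.98. Atf3 (-1.38), Ddit3 (-0.93) and Trib3 (-1.33) fell in controls, where 35.3% of all genes were called lower.

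Stromal markers rose in the same comparisons. Of 9 fibroblast markers, 8 rose in control and 7 in deleted tumours, and their mean level per array was 6.08 to 6.57 in epithelial cells and 8.38 to 9.81 in tumours. Of 7 smooth muscle markers, 7 rose in each genotype. The part of these cells in the levels of Pla2g2a, Habp2 and Nupr1 was not tested.

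**Figure D2:**
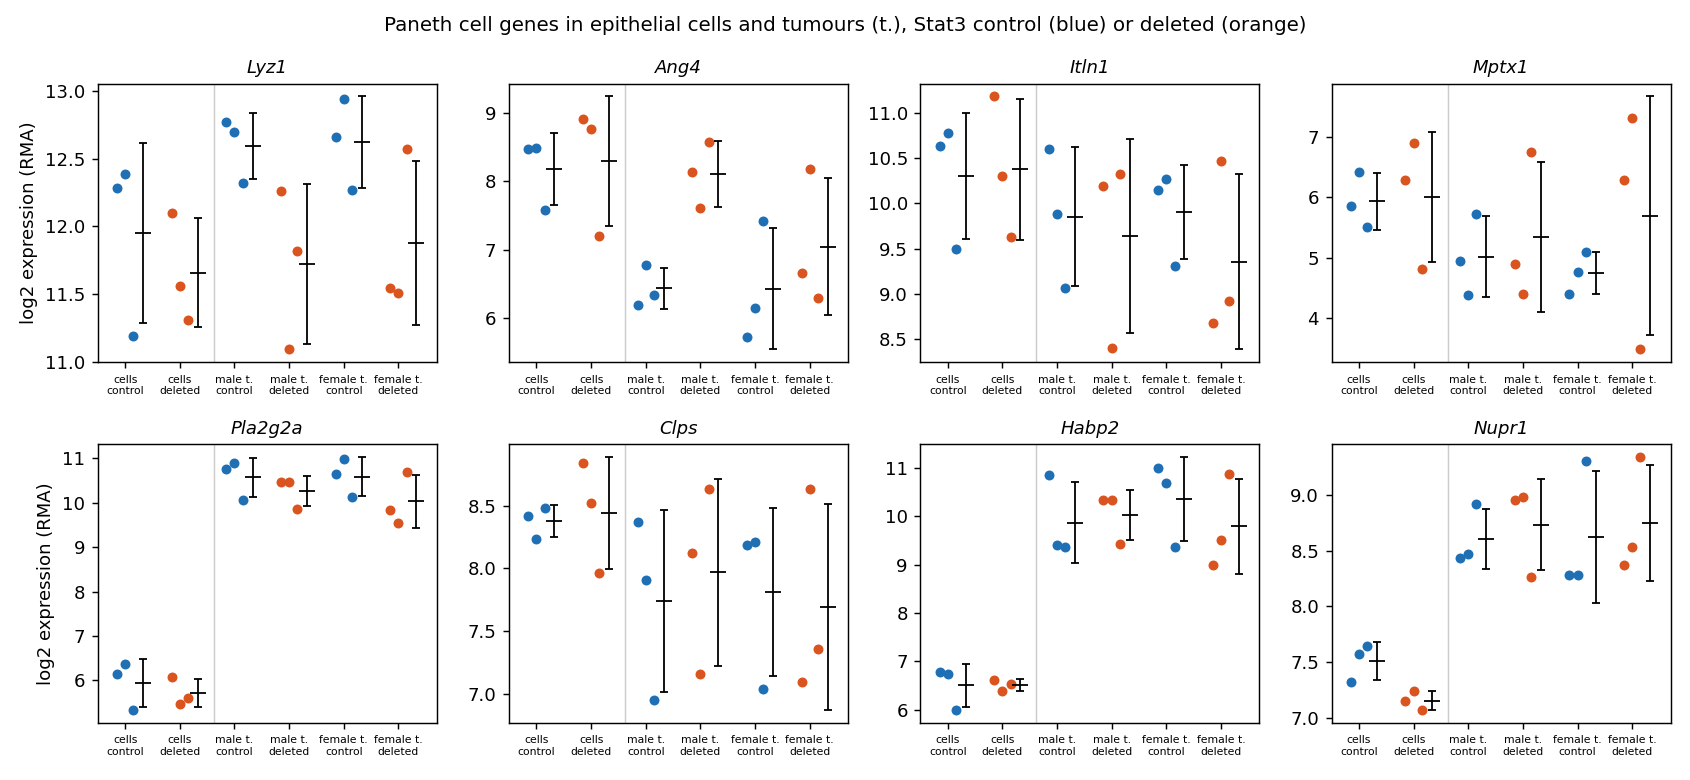
Log2 expression of the 8 Paneth cell genes in each of the 18 arrays by group, with points for arrays and bars for the group mean and SD (n = 3). Pla2g2a, Habp2 and Nupr1 do not overlap between epithelial cells and tumours, and the other 5 do.

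Ang4, an antimicrobial ribonuclease of the angiogenin family, was the member that fell in control tumours. It read 8.48, 8.49 and 7.58 in control and 8.91, 8.77 and 7.20 in deleted epithelial cells. In control tumours it read 6.196, 6.77 and 6.33 in males and 5.71, 6.15 and 7.42 in females, all below the control epithelial cells. In deleted tumours it read 8.13, 7.61 and 8.57 in males, within the range of the epithelial cells, and 6.66, 8.19 and 6.29 in females. The fall in control tumours was -1.75 ± 0.46 (3.37-fold, adjusted p = 0.0037). With Stat3 deleted the difference was -0.72 ± 0.46 (adjusted p = 0.172). These differences themselves differed by 1.03 ± 0.65, 95% interval -0.34 to 2.40, adjusted p = 0.593, so the fall is not shown to depend on Stat3. With arrays weighted by their estimated quality the same contrast was 2.45 with adjusted p = 0.0218. Under those weights the mean of deleted epithelial cells rested largely on replicate 6, weighted 4.87 against 0.3 and 0.59. Its Ang4, 7.20, was the lowest of that group, so this value leans on a single array.

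Itln1, an intelectin that binds microbial sugars, Clps, the cofactor of pancreatic lipase, and Mptx1, a mucosal pentraxin, were not called in either genotype. Itln1 lay between 9.50 and 11.18 in epithelial cells and between 8.40 and 10.60 in tumours, a difference of -0.42 ± 0.51 in controls (adjusted p = 0.47) and -0.87 ± 0.51 with Stat3 deleted (adjusted p = 0.135). Clps lay between 7.97 and 8.84 in epithelial cells and between 6.95 and 8.63 in tumours. Its differences were -0.60 ± 0.39 (adjusted p = 0.188) and -0.61 ± 0.39 (adjusted p = 0.179). Both genes overlapped between tissues in each genotype. Mptx1 differed by -1.05 ± 0.68 (adjusted p = 0.182) and -0.48 ± 0.68 (adjusted p = 0.541), and at 3.48 to 7.31 in tumours it ranged from the 14.6th to the 69th percentile of the array, near background in part of them. When the fit held the compared groups alone, Mptx1 was called in controls (-1.05, adjusted p = 0.0141).

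Without replicates 9 and 15, the differences in control tumours moved to -0.08 for Itln1, -0.21 for Clps and -1.31 for Mptx1. They moved to 4.87 for Pla2g2a, 3.98 for Habp2, 0.85 for Nupr1 and -1.98 for Ang4. The calls of the last 4 held. In the deleted genotype 5 members were called without female replicate 17, Ang4 at -1.01 (adjusted p = 0.0444) and Itln1 at -1.15 (adjusted p = 0.046) being added. Ang4 was also called without epithelial replicate 6 (-1.27, adjusted p = 0.03).

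Whether deletion of Stat3 in the epithelium moved Paneth cell genes was asked in epithelial cells and in tumours, from the same arrays as the comparisons between tissues. No member was called by limma in any of these comparisons. The count was 0 of 8 in epithelial cells, where 0.0231% of all genes were called, and 0 of 8 in male tumours (0.231%), female tumours (0.104%) and both sexes averaged (0.71%). At an unadjusted p under 0.05 the count was 0 in epithelial cells, 2 in males, 0 in females and 2 in both sexes, the 2 being Ang4 and Lyz1 each time. The share of all genes at that level was 6.8%, 7.52%, 5.03% and 12% in the same order.

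In tumours of both sexes, Ang4 differed by 1.15 with deletion, 95% interval 0.35 to 1.94 and adjusted p = 0.198. Lyz1 differed by -0.81, interval -1.36 to -0.26 and adjusted p = 0.188. In males the groups did not overlap for either gene: Ang4 was higher in all 3 deleted tumours (1.67, adjusted p = 0.385) and Lyz1 lower (-0.87, adjusted p = 0.616). Among all genes, 2.06% were higher and 8.03% lower without overlap in that comparison. In females both overlapped, with differences of 0.62 for Ang4 and -0.75 for Lyz1 (each adjusted p = 0.997). When arrays were weighted by their estimated quality, both genes passed in both sexes, Lyz1 at -1.0 (adjusted p = 0.0115) and Ang4 at 1.51 (adjusted p = 0.0192). Those weights ran from 0.16 (replicate 8) to 3.17 (replicate 13) over the tumours. Under them many more of all genes were called, as given below. Without replicates 9 and 15 the differences in both sexes were 1.37 for Ang4 (adjusted p = 0.126) and -0.97 for Lyz1 (adjusted p = 0.157). Over the 18 fits that left out a single array, replicate 8 among them, they ran from 0.86 to 1.39 for Ang4 and from -0.98 to -0.65 for Lyz1. Lower levels of the ileal genes Fabp6 and Slc10a2 accompanied these differences, though of 5 ileum markers 1 was called. The part of these genes was not tested.

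The other 6 genes differed by between -0.44 and 0.64 in tumours of both sexes. For Pla2g2a the interval was -0.94 to 0.07, for Itln1 -1.25 to 0.49, for Habp2 -0.94 to 0.55, for Clps -0.63 to 0.74, for Mptx1 -0.54 to 1.81 and for Nupr1 -0.30 to 0.56. Effects of 0.5 log2 units or more thus lay inside the interval of each of the 6, in at least 1 direction. In epithelial cells the 8 differences lay between -0.36 and 0.11. The lowest was Nupr1, for which the 3 deleted arrays lay below the 3 controls (-0.36, adjusted p = 0.797), as did 7.81% of all genes. Markers of T and NK cells, which can lie within the epithelium, had a mean level of 7.34 to 8.87 in deleted and 6.68 to 7.24 in control epithelial arrays, and 0 of 13 were called. Their part in these differences was not tested.

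The deletion effect was also compared between tissues and between sexes. Between tumours and epithelial cells 0 of 8 members were called (0.0116% of all genes), with differences of -0.51 to 1.03 and adjusted p of at least 0.593. Between female and male tumours 0 of 8 were called (0% of all genes), with differences of -1.05 to 0.61. Male against female tumours, averaged over genotypes, gave 0 of 8 (0.0231% of all genes) and differences of -0.12 to 0.53. At an unadjusted p under 0.05 the count of members was 0 in each of the 3, where 9.38%, 0.936% and 6.13% of all genes reached it.

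**Figure D3:**
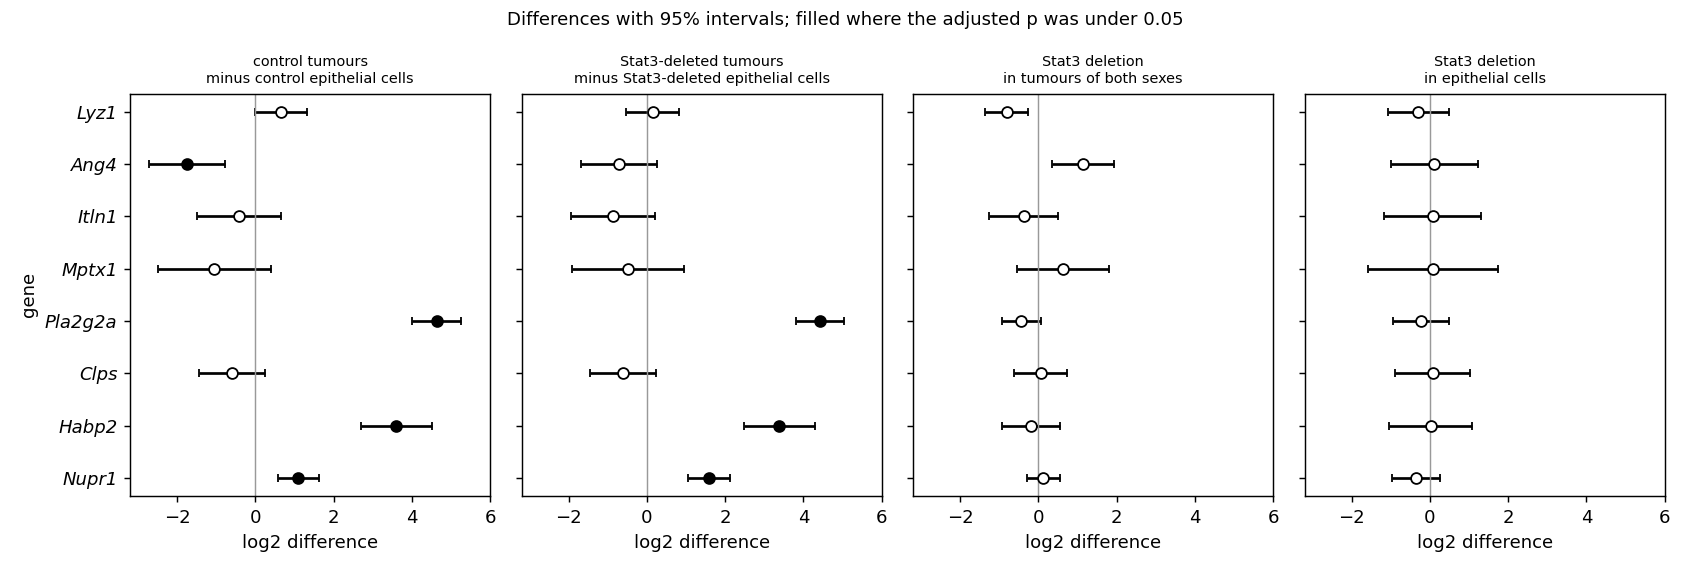
Log2 differences of the 8 genes with 95% intervals from limma for tumours against epithelial cells in each genotype and for deletion of Stat3 within each tissue. Pla2g2a, Habp2 and Nupr1 lie right of 0 in both tissue comparisons, at 4.63, 3.60 and 1.10 in controls, and Ang4 and Lyz1 exclude 0 for deletion in tumours without passing the adjusted threshold.

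The promoters of 3 genes called in tumours are shown because STAT3 binds the palindrome TTCNNNGAA, where N is any base. Capitals mark this motif and, in Nupr1, the E-box CAGCTG. Ang4 is at chr14:51773591-51773840 and Nupr1 at chr7:126625471-126625720, both on the minus strand, and Habp2 at chr19:56287662-56287911 on the plus strand (RefSeq, GRCm38.p6).
Ang4: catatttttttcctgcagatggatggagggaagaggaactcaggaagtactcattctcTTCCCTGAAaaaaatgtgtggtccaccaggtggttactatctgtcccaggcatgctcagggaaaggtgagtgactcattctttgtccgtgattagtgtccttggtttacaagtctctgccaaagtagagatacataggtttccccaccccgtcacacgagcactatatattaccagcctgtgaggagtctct
Nupr1: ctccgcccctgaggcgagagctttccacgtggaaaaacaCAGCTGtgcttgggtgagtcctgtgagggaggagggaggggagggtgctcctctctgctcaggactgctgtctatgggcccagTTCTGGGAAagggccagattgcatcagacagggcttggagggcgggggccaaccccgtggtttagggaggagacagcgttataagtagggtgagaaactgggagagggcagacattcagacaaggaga
Habp2: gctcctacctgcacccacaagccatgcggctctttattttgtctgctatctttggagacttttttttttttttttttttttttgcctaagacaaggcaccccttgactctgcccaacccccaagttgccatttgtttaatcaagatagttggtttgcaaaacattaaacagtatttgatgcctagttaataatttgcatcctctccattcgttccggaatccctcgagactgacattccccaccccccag
The motif began at -192 from the start in Ang4 and at -128 in Nupr1, where the E-box began at -211, and it was in 2 of the 6 promoters held. Among 32851 promoters of 250 bases, 7.02% held it on either strand. The motif CTTTGAT, bound by the WNT effectors of the TCF/LEF family, was in 0 of the 6 and in 3.21% of all. TATAAA was in Mptx1 on the opposite strand only, reading TTTATA along the gene at -198 and -82. On either strand it was in 12.4% of all, and CAGCTG was in 13% of all. The motifs do not overlap each other in these promoters. A match describes letters and does not show binding.

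Other Paneth cell products were read from a further list, of which 10 of 23 genes were measured. In control tumours 3 rose and 4 fell. The shares over all genes were 30.4% higher and 35.3% lower there, and 30.3% and 36.2% with Stat3 deleted, so the counts lay near those shares. Mmp7, the matrilysin that activates mouse defensins, rose by 3.08 ± 0.42 (adjusted p = 2.04e-05), and by 3.01 without replicates 9 and 15. Cd24a, a surface protein of Paneth and progenitor cells, rose by 2.14, and Sntb1, a syntrophin, by 1.47. The Notch ligand Dll1 (-1.27), the WNT ligand Wnt3 (-0.58) and the ribonucleases Ang5 (-0.38) and Ang6 (-0.67) fell. With Stat3 deleted, the same 3 rose, and Ang5, Dll1, Wnt3 and the growth factor Egf (-0.60) fell. In tumours Ang5 read 3.90 to 4.58, Ang6 4.26 to 5.26 and Egf 4.57 to 5.20. These levels are dim, as the 25th percentile of an array was 4.30 to 4.41 in tumours and 4.51 to 4.575 in epithelial cells. The part of background in these 3 falls was not tested. Pnliprp2 and Dll4 were called in neither genotype.

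Mmp7 was the gene of this list that was called for Stat3 deletion. It read 10.82, 11.36 and 11.28 in male and 10.88, 11.42 and 11.40 in female control tumours. In deleted tumours it read 10.50, 8.997 and 9.18 in males and 8.82, 9.07 and 10.70 in females. All 6 deleted tumours lay below all 6 controls, as did 1.14% of all genes, and the difference was -1.65 ± 0.34 (adjusted p = 0.0328). The call was lost when the fit held the tumour arrays alone (adjusted p = 0.0974), without replicates 9 and 15 (adjusted p = 0.0759), and in 8 of the 18 fits that left out a single array: replicates 6, 8, 11, 12, 14, 15, 16 or 17. Over all 18 of these fits the size ranged from -1.94 to -1.47. The part of gut position in this difference was not tested.

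The alpha defensins, the main peptides of Paneth granules, are a family of near-identical copies, so most probe sets name several genes. Defa24 and Defa39 had a probe set of their own, yet reads of other copies cannot be told apart. Defa39 read 10.03, 10.45 and 8.65 in control and 10.71, 9.93 and 8.50 in deleted epithelial cells. In control tumours it read 8.68, 9.42 and 5.25 in males and 8.35, 8.28 and 5.46 in females, the lowest value of each sex being replicate 9 and replicate 15. In deleted tumours it read 6.24, 5.37 and 9.16 in males and 6.24, 7.31 and 5.74 in females. It was lower by -2.13 ± 0.94 in controls (adjusted p = 0.0565), -1.02 without those 2 arrays, and fell by 3.03 with Stat3 deleted (adjusted p = 0.01). That call was lost without epithelial replicate 4 (adjusted p = 0.0633) and with weighted arrays (adjusted p = 0.0509). In controls it was gained under quantile normalisation (adjusted p = 0.0485), with weighted arrays (adjusted p = 0.016) and without replicate 7, 8, 12, 13 or 14 (adjusted p of 0.0249 to 0.0496). Defa24 differed by -1.02 in controls (adjusted p = 0.262), and by -0.30 without replicates 9 and 15 (adjusted p = 0.729). With Stat3 deleted it differed by -1.61 (adjusted p = 0.0825). It was called there without replicate 12 (adjusted p = 0.0314), without 17 (adjusted p = 0.0478) and without 9 and 15 (adjusted p = 0.0441). The 6 probe sets that name several defensins, which were not tested, differed by -1.06 to -0.93 in controls and by -2.02 to -1.49 with Stat3 deleted.

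**Figure D4:**
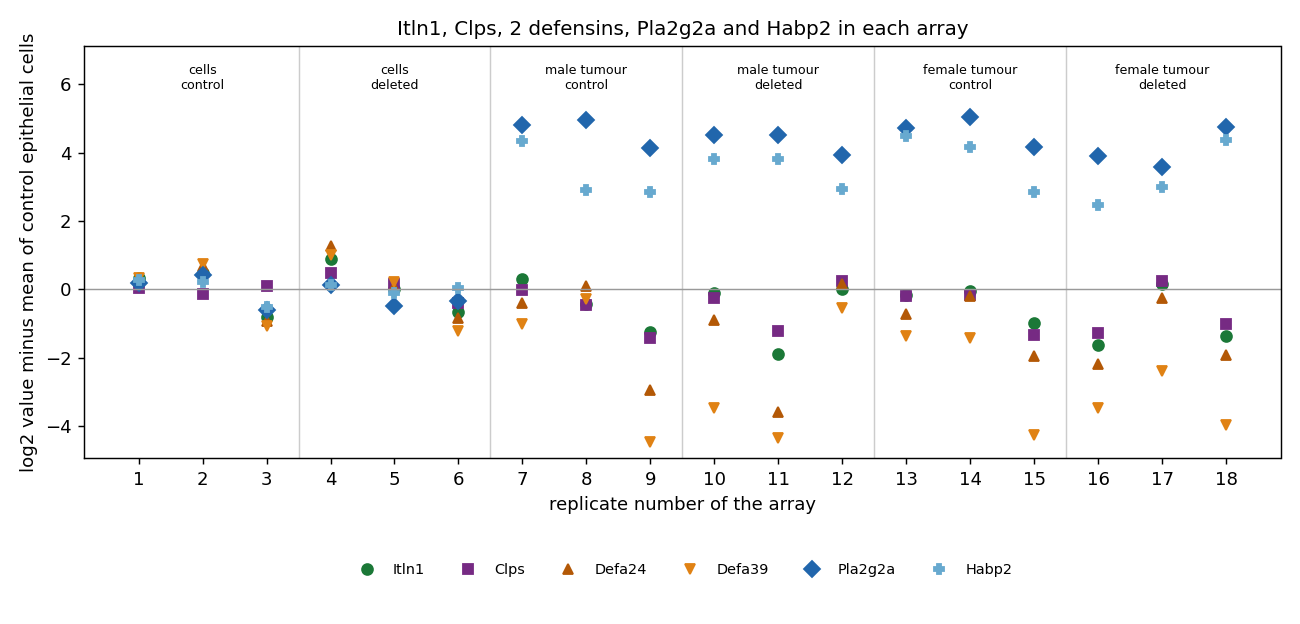
Log2 value minus the mean of the 3 control epithelial arrays for Itln1, Clps, Defa24, Defa39, Pla2g2a and Habp2 in each of the 18 arrays, ordered by replicate number. Pla2g2a and Habp2 stand above 0 in every tumour, while Itln1, Clps and the defensins vary from tumour to tumour and are low in replicates 9, 11, 15, 16 and 18, Defa39 in 10 as well.

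Replicates of a group differed more for these genes than for most. The pooled SD within groups was 1.11 for Mptx1, 0.82 for Itln1, 0.74 for Ang4, 0.69 for Habp2, 0.63 for Clps, 0.50 for Lyz1, 0.46 for Pla2g2a and 0.39 for Nupr1, against a median of 0.24 over all tested genes. Nupr1 was at the 85th percentile of genes in this respect and Mptx1 at the 99.6th.

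Over the 12 tumours, which share genotype, sex and gut position in part, the correlation between members ranged widely. Itln1 and Clps varied together (Pearson r = 0.92, Spearman rho = 0.86, and r = 0.96 without replicates 9 and 15), as did Itln1 and Defa24 (r = 0.90). Lyz1 varied with Mmp7 (r = 0.89) and with Pla2g2a (r = 0.72), and Pla2g2a with Habp2 (r = 0.70). Lyz1 and Habp2 (r = 0.47) and Habp2 and Mmp7 (r = 0.30) were less alike, and Lyz1 and Defa24 (r = 0.46) varied together about as much. Without replicates 9 and 15, r rose to 0.59 for Habp2 and Mmp7, and from 0.64 to 0.88 for Pla2g2a and Mmp7. It also rose for Lyz1 and Defa24 (to 0.56, beside 0.55 for Lyz1 and Habp2) and for Mmp7 and Defa24 (0.16 to 0.45). It fell for Pla2g2a and Defa24 (0.17 to 0.05) and for Habp2 and Defa24 (0.11 to -0.10). Ang4 ran against Lyz1 (r = -0.64) and Mptx1 against Pla2g2a (r = -0.87). Nupr1 ran against Defa39 (r = -0.80), Clps (r = -0.64), Defa24 (r = -0.63) and Itln1 (r = -0.56). With the remaining members its r lay between -0.40 (Mptx1) and 0.12 (Ang4), and with Lyz2 it was 0.69 (Spearman rho = 0.37). Over the 6 epithelial arrays Lyz1 and Pla2g2a (r = 0.96), Lyz1 and Mmp7 (r = 0.94), Pla2g2a and Habp2 (r = 0.87) and Itln1 and Defa24 (r = 0.99) ran the same way as in tumours. Lyz1 and Ang4 (r = 0.70) and Mptx1 and Pla2g2a (r = 0.28) had the other sign there than in tumours. Weaker there than in tumours were Itln1 and Clps (r = 0.55) and Nupr1 and Defa39 (r = -0.05). Stronger were Lyz1 and Itln1 (r = 0.89, against 0.45 in tumours) and Lyz1 and Defa24 (r = 0.84). These differences were not tested. Replicates 3 and 6, 1 of each genotype, had the lowest Lyz1, Ang4, Itln1 and Mptx1 of their group there.

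**Figure D5:**
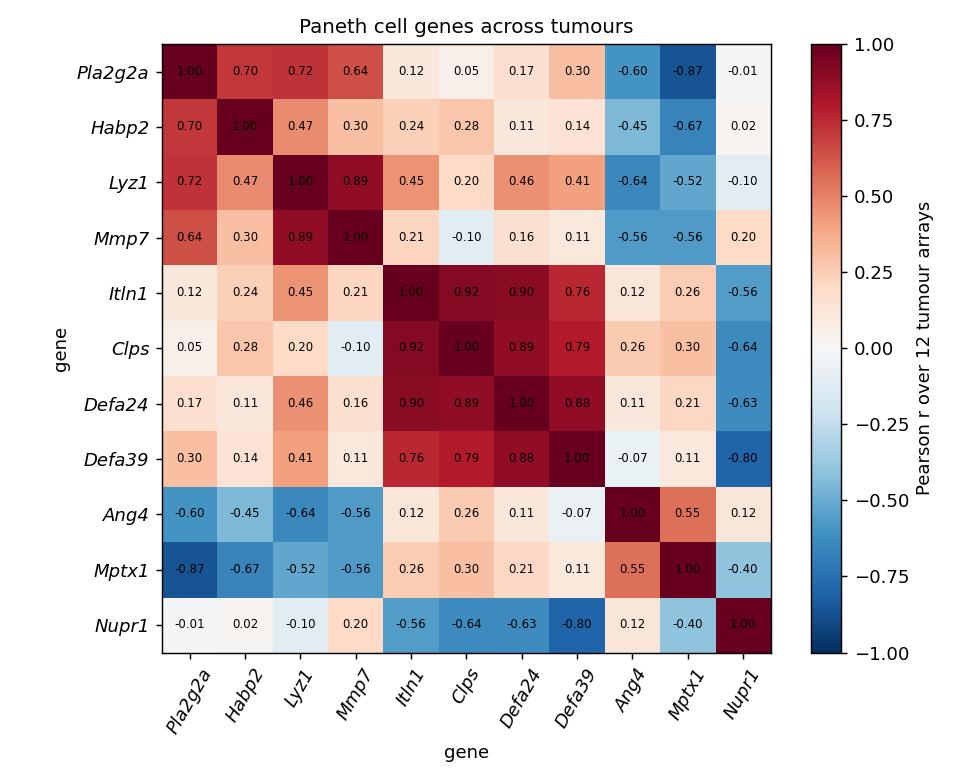
Pearson correlation between the log2 levels of 8 Paneth cell genes, Mmp7, Defa24 and Defa39 over 12 tumour arrays, with genes on both axes and r as colour and number. Itln1, Clps and the defensins have r from 0.76 to 0.92 among themselves and at most 0.46 with Lyz1, Mmp7, Pla2g2a and Habp2. Among the latter r runs from 0.30 to 0.89. Without replicates 9 and 15, which is not drawn, Lyz1 and Defa24 have r = 0.56.

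The genes whose pattern was most like the mean of the 8 over all 18 arrays were Srp19 (r = 0.91), Kri1, Tamm41, Erp29, Lss, Ctse, Pdlim3 and Aplf (0.87). Over the 12 tumours they were Padi2 (r = 0.91), S100a5, Add2, Nrip3, Mucl3, Commd5, Cfap57 and Defa24 (0.81). Members were centred but not scaled for this mean. Over 18 arrays the tissue differences of Pla2g2a (4.63 in controls) and Habp2 (3.60) therefore weigh most in it, while Ang4 (-1.75) goes the other way. Padi2 was also the gene most like Clps (r = 0.96), and Clps was the next for Itln1 after Add2 and Padi2. For Ang4 the nearest were Pla2g4c (r = 0.94), Cd55b and Rhox13, and for Lyz1 Rap1gap (r = 0.93), Zfp414 and Wdr62. Pla2g2a was followed most closely by Olfml2a (r = 0.89), Habp2 by Noxa1 (r = 0.91), Mptx1 by Lrmp (r = 0.88) and Nupr1 by Rnf149 (r = 0.95).

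Genes that make or maintain Paneth cells were read from a list of 19, of which 18 were tested. In control tumours 7 rose and 3 fell, and with Stat3 deleted 9 rose and 1 fell, with medians of 0.25 and 0.35. Of all genes, 30.4% were called higher and 35.3% lower in controls, and 30.3% and 36.2% with Stat3 deleted. The genes named next had the smallest p of the list. Sox9, a WNT-dependent factor that Paneth cells need, rose by 2.32 (adjusted p = 3.96e-08), and Ephb3, the receptor that places them at the crypt base, by 2.82 (adjusted p = 1.21e-07). Neither overlapped between tissues: Sox9 lay at 7.37 to 7.82 in epithelial cells and 9.23 to 10.30 in tumours, and Ephb3 at 6.32 to 6.92 and 8.65 to 9.85. With Stat3 deleted they rose by 2.11 and 2.18. Crypt-base stem cell markers, which mark the neighbours of Paneth cells, rose in 7 of 8 and 6 of 8 cases, and Lgr5 rose by 3.66 and 3.49. Of 10 tested goblet cell markers, another secretory type, 4 rose and 4 fell in control tumours and 3 rose and 1 fell in deleted ones.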

How the data were processed

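The values are the deposited log2 expression values of 35556 probe sets on 18 arrays, made with RMA per the submitters' processing notes, which corrects background, normalises arrays by quantiles and summarises probes. The version of RMA, and whether all arrays were processed together, is not given in the sources used here. Values ran from 1.33 to 14.6 with array medians of 5.88 to 6.07. No array was identical to another. No signal over background was given, so the number of arrays limits precision.

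Probe sets were named through GEO's platform annotation: 21789 had 1 symbol, 1621 several and 12146 were not listed. The probe set with the highest mean stood for a gene. Genes above the array's 25th percentile in at least 3 arrays were tested (17316). In R 4.3.3, limma 3.58.1 fitted 6 group means to all 18 arrays, with an intensity trend, two-sided tests and Benjamini-Hochberg adjustment within each of 9 comparisons (threshold 0.05). The fit was tested on simulated data. The genes, lists, rule for named genes and tests were chosen with earlier results of these data known. The text names all 8 members, measured genes of the Paneth product and defensin lists, up to 4 passing genes of other lists, and the 8 genes, or 3 for a member, of highest correlation. Alternatives changed normalisation, filter, variance estimate, arrays in the fit, array weights and probe set rule.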

Additional observations from a re-analysis of the deposited data

How the results depend on the processing

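Of 45 values followed over 29 alternatives, 25 kept their direction and side of the threshold in all, and 0 called values changed direction. Weighting arrays, by 0.16 (replicate 8) to 4.87 (replicate 6), changed counts of members called for Stat3 deletion from 0 to 1 in epithelial cells (Lyz1), 3 in female tumours (Lyz1, Pla2g2a and Habp2), 2 in both sexes (Lyz1 and Ang4), and 1 for the difference between tissues (Ang4). Under these weights Ang4 in epithelial cells was -0.94, Clps in tumours of both sexes -0.028, and in deleted tumours against epithelial cells Ang4 was 0.23 and Mptx1 1.0. Without replicates 9 and 15, deletion in both sexes gave -0.34 for Clps and 0.051 for Lyz2. Quantile normalisation gave -0.13 for Lyz1 in deleted tumours against epithelial cells. Leaving out 1 array gave 3 to 5 members called in that comparison, with Lyz1 from -0.031 to 0.365 and Mptx1 from -1.08 to 0.072. It gave -0.20 to 0.66 for Ang4 in epithelial cells, and for deletion in both sexes -0.47 to 0.044 for Habp2, -0.18 to 0.26 for Clps, -0.02 to 0.30 for Nupr1 and -0.89 to 0.11 for Defa24. The cause was not tested.

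Counts over all genes moved more. For Stat3 deletion, weights called 1134 genes in epithelial cells, 745 in females, 1414 in both sexes and 1038 between tissues, against 4, 18, 123 and 2. With the compared groups alone the counts were 0 in females, 2 in males (40 in the fit reported) and 43 in both sexes. With tumour arrays alone they were 6, 4 and 43. Without replicates 9 and 15 they were 117 in males, 202 in both sexes and 8 between tissues. Leaving out 1 array gave 10 to 30 in females, 13 to 84 in males, 64 to 265 in both sexes, 2 to 4 in epithelial cells and 1 to 10 between tissues. No paired analysis was possible because the replicate numbers are unique over the series. With 3 arrays a group, intervals on the members were wide, and genes dim in some arrays, such as Mptx1, cannot be told from background there.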

Other observations

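Clps encodes the cofactor of pancreatic lipase, and genes of pancreatic digestive enzymes were read beside it. Of 11 tested genes of that list, 2 rose and 8 fell in control tumours, and 2 rose and 9 fell in deleted tumours. Of all genes, 30.4% were called higher and 35.3% lower in controls, and 30.3% and 36.2% with Stat3 deleted. The mean of the list per tumour array was 5.51 to 6.10, near the array medians of 5.88 to 6.07, and the part of background was not tested. The 2 that rose were Pnliprp1, a lipase-related protein, and Cela1, an elastase. Pnliprp1 lay between 5.20 and 5.58 in the 6 epithelial arrays and between 7.06 and 11.34 in the 12 tumours, without overlap. It rose by 3.34 in control tumours (limma adjusted p = 0.000628) and by 4.54 in deleted tumours (adjusted p = 6.57e-05). Cela1 lay between 6.41 and 7.05 in epithelial cells and between 7.67 and 9.34 in tumours, and rose by 2.14 (adjusted p = 9.36e-06) and 1.26 (adjusted p = 0.000789). Clps was not called in either comparison. Pnliprp2, which Paneth cells also make, was not called either.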
